A study of Homo sapiens with 8 samples.

Results

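Mitochondrial ribosomal proteins were followed in a genome-wide knockout screen of PC9 cells, an EGFR-mutant non-small cell lung cancer line. The members were all genes of the guide count table with an MRPL or MRPS symbol, 76 of 18052 genes, of which 47 carried a large subunit symbol (MRPL) and 29 a small subunit symbol (MRPS). All cells expressed the Cas9 nuclease and carried the TKOv3 guide library, so that each cell was meant to lose a single gene. Libraries came from cells treated for 72 h with 10 µM erlotinib, cells treated for 72 h with 0.1 µM osimertinib, cells labelled untreated and kept without either inhibitor for 72 h (the protocols list DMSO, the solvent, in this place), and cells collected when the drugs were added (T0), with 2 libraries per group. Erlotinib and osimertinib are EGFR kinase inhibitors and were used at different doses. A single line was studied, and only live cells were collected according to the methods. The labels describe infection in duplicate, while the methods count the infected cells for each treatment condition. If each condition was infected separately, infection and drug cannot be told apart. Which cultures shared an infection is not stated, so the p-values reflect the spread between these libraries only, and some of that spread may be technical.

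Mitochondria have their own ribosome, which translates the few proteins encoded by mitochondrial DNA. These proteins are core subunits of respiratory complexes and of the ATP synthase, so cells without a working mitochondrial ribosome cannot maintain oxidative phosphorylation. All proteins of this ribosome are encoded in the nucleus and imported. Many descend from the bacterial ancestor, and the rest were added in mitochondria. The large subunit forms peptide bonds and releases the nascent chain at the inner membrane, and the small subunit binds mRNA and decodes it.

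Symbols and structure did not match fully. In the human mitochondrial ribosome MRPS30 and MRPS18A sit in the large subunit despite their names, and MRPS36 is a component of the 2-oxoglutarate dehydrogenase complex rather than of the ribosome. By structure there were therefore 49 large subunit members, of which 30 have a bacterial homologue and 19 are mitochondria-specific, and 26 small subunit members, of which 16 have a bacterial homologue and 10 are mitochondria-specific. The library held 4 guides for 75 members and 1 for MRPS36, which made 301 guides. None of these guides was at 0 reads in any library. MRPS36 could not be tested as a gene, because a gene value required at least 2 guides. Its guide had 14.6 and 17.3 CPM (reads scaled to library size) under erlotinib, 16.5 and 17.7 CPM under osimertinib, 15.3 and 18.5 CPM in untreated cells and 12.7 and 14.7 CPM at T0. After the lowest 5% of guides were left out, 64 of the other members kept 4 guides and 11 kept 3. Whether a guide also matches a processed pseudogene was not examined.

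Total counts were 32093833 to 39197691 reads per library, with 445 to 549 reads for the median guide. Guides of the members took 0.436% and 0.436% of reads under erlotinib, 0.413% and 0.411% under osimertinib, 0.407% and 0.405% in untreated cells, and 0.419% and 0.417% at T0. Across guides, replicate libraries had a Pearson r of 0.964 to 0.978 in their read counts, and they differed by more than sampling noise (chi-square per degree of freedom 2.66 to 5.07). Guides against cytosolic ribosomal proteins, which every dividing cell needs, were depleted in untreated cells relative to T0 (median -0.78, 55 of 58 genes lower), which serves as a check that knockouts took effect.

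A gene value is the median log2 fold change (L2FC) over the gene's guides, from which the non-targeting median was subtracted. It is given ± the SD between guides, with n guides. A gene was called where the difference between libraries passed an adjusted p of 0.05 (limma, Benjamini-Hochberg over 17761 genes). The fitted difference between libraries is computed separately from the gene value, and the signs differed for 6 of the 75 members in the erlotinib comparison and 13 in the osimertinib comparison, none of them called. A positive value means that cells without the gene took a larger share. A lower share can come from slower growth or from more death, and these counts cannot separate them. The paper states that a positive value against untreated cells can come from drug resistance. By its account it can also come from slow growth without drug in a knockout whose drug response is unchanged. Which of these applied to the members was not tested.

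Under erlotinib, knockouts of the mitochondrial ribosome were on the whole more abundant than in untreated cells. Of 75 members, 11 rose (14.7%) and 0 fell, against 5.36% of all genes tested that rose and 2.54% that fell. The median L2FC was 0.12 over the members and 0.0043 over all genes. Of the members that rose, 10 had a large subunit symbol (10 of 47, median 0.12) and 1 had a small subunit symbol (1 of 28, median 0.095). The split was less uneven by other measures, with 20 of 47 and 9 of 28 members higher at an unadjusted limma p under 0.05. Of all genes 3755 of 17761 passed that threshold in either direction. Against olfactory receptor guides instead of non-targeting guides, 12 MRPL and 3 MRPS members were called higher, against 6.44% of all genes. At an unadjusted p under 0.05, 29 members were higher and 0 were lower, and with edgeR on counts summed per gene 20 were called higher (7.43% of all genes) and 0 lower. Both erlotinib libraries lay above both untreated libraries for 51 of the 75 members (68.0%), against 30.4% of all genes, and below both for 4 members (5.33%), against 20.6% of all genes. Those 4 members all had an MRPS symbol, and they made up 14.3% of the 28 MRPS members, also below the share of all genes.

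**Figure D1:**
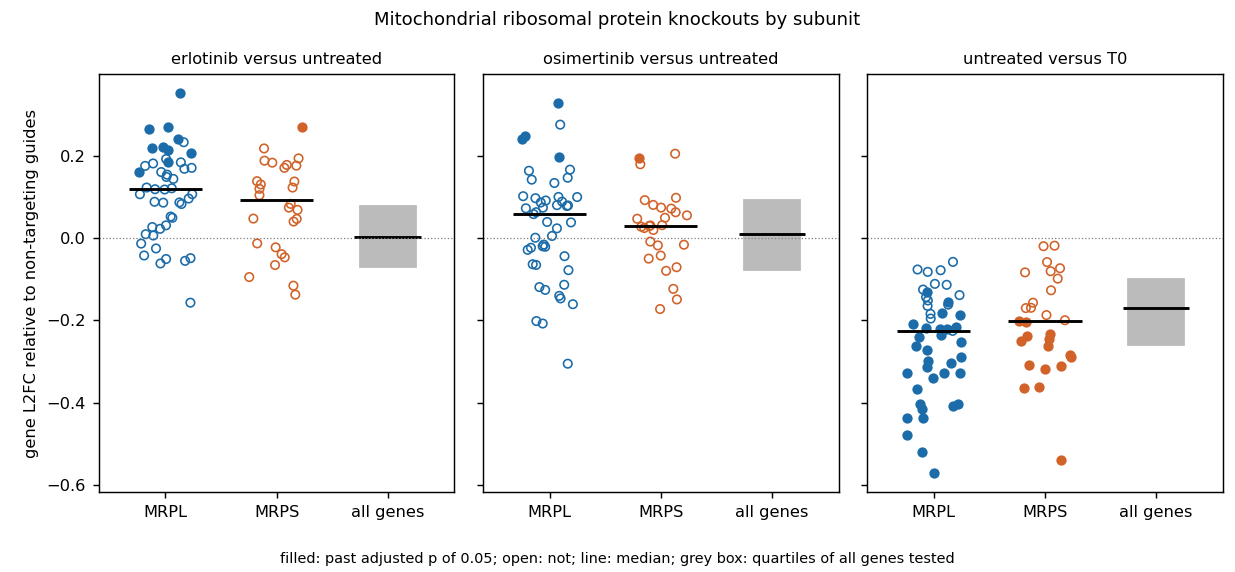
Gene values (L2FC relative to non-targeting guides) of the tested members with MRPL and MRPS symbols for 10 µM erlotinib versus untreated, 0.1 µM osimertinib versus untreated and untreated versus T0. Filled points passed an adjusted p of 0.05, black lines are medians and grey boxes are the quartiles of all 17761 genes; members lie mostly above 0 under erlotinib (median 0.12) and below 0 in every case in untreated cells relative to T0.

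MRPL19 (bL19) had the highest value of all members. This protein of the large subunit has a bacterial homologue at the interface between the subunits. Relative to T0 and to non-targeting guides, its log2 abundance was 0.19 and 0.31 in the erlotinib libraries, 0.17 and 0.095 in the osimertinib libraries, and -0.21 and -0.062 in the untreated libraries. Both libraries of each drug thus lay above both untreated libraries. The L2FC was 0.35 ± 0.15 (n = 4 guides) for erlotinib against untreated, with adjusted p = 0.000138 by limma. All 4 of its guides were above 0, between 0.096 and 0.43. MRPL19 was also the only member called higher under erlotinib than at T0 (0.25 ± 0.21, n = 4 guides, limma adjusted p = 0.00344).

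MRPS34 (mS34), a mitochondria-specific protein of the small subunit, was the only MRPS member that rose under erlotinib. Its log2 abundance relative to T0 was 0.074 and 0.055 in the erlotinib libraries, -0.038 and -0.19 in the osimertinib libraries, and -0.23 and -0.22 in the untreated libraries. The erlotinib libraries lay above both untreated libraries, while the osimertinib libraries lay in between. The L2FC for erlotinib was 0.27 ± 0.097 (n = 4 guides, limma adjusted p = 0.00205), and its guides were between 0.25 and 0.46. For osimertinib the L2FC was 0.075 ± 0.28 (n = 4 guides), with limma adjusted p = 0.281. A single guide with 0.58 stood far above the other 3 in that comparison.

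MRPL36 (bL36), a short zinc-binding protein of the large subunit, was more abundant under both drugs than in untreated cells. The erlotinib libraries had -0.13 and -0.24, the osimertinib libraries -0.12 and -0.062, and the untreated libraries -0.65 and -0.44. Neither drug overlapped with the untreated libraries. The L2FC was 0.24 ± 0.21 (n = 3 guides, limma adjusted p = 0.00289) for erlotinib and 0.33 ± 0.15 (n = 3 guides, limma adjusted p = 0.000184) for osimertinib, where it was the highest value of all members. The untreated libraries enter both comparisons, so these values are not independent of each other.

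MRPL28 (bL28) had -0.18 and -0.097 in the erlotinib libraries, -0.18 and -0.22 in the osimertinib libraries and -0.35 and -0.46 in the untreated libraries. Its L2FC was 0.27 ± 0.17 (n = 4 guides, limma adjusted p = 0.0102) for erlotinib and 0.24 ± 0.10 (n = 4 guides, limma adjusted p = 0.0435) for osimertinib. The osimertinib call of MRPL28 depended on single libraries and was kept under 6 of 9 other settings of the analysis. MRPL37 (mL37), which is mitochondria-specific, had -0.080 and -0.028 in the erlotinib libraries, against -0.31 and -0.32 in the untreated libraries. It rose by 0.27 ± 0.19 (n = 4 guides, limma adjusted p = 0.0137), although 1 of its guides was at -0.094. The T0 libraries of MRPL37 were 0.11 and -0.11, a wider spread than for the other members that rose.

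The other 6 members that rose under erlotinib were MRPL23, MRPL53, MRPL2, MRPL35, MRPL17 and MRPL18, with L2FC between 0.16 and 0.22 and limma adjusted p between 0.0155 and 0.0423. Apart from MRPL53 (mL53) they have bacterial homologues. MRPL23 (uL23) and MRPL17 (bL17) line the exit of the nascent chain, MRPL2 (uL2) lies by the peptidyl transferase centre, and MRPL18 (uL18) belongs to the central protuberance. The guides of MRPL23 disagreed, with values between -0.40 and 0.37. For MRPL2, MRPL17, MRPL18, MRPL35 and MRPL53 all 4 guides were above 0.

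**Figure D2:**
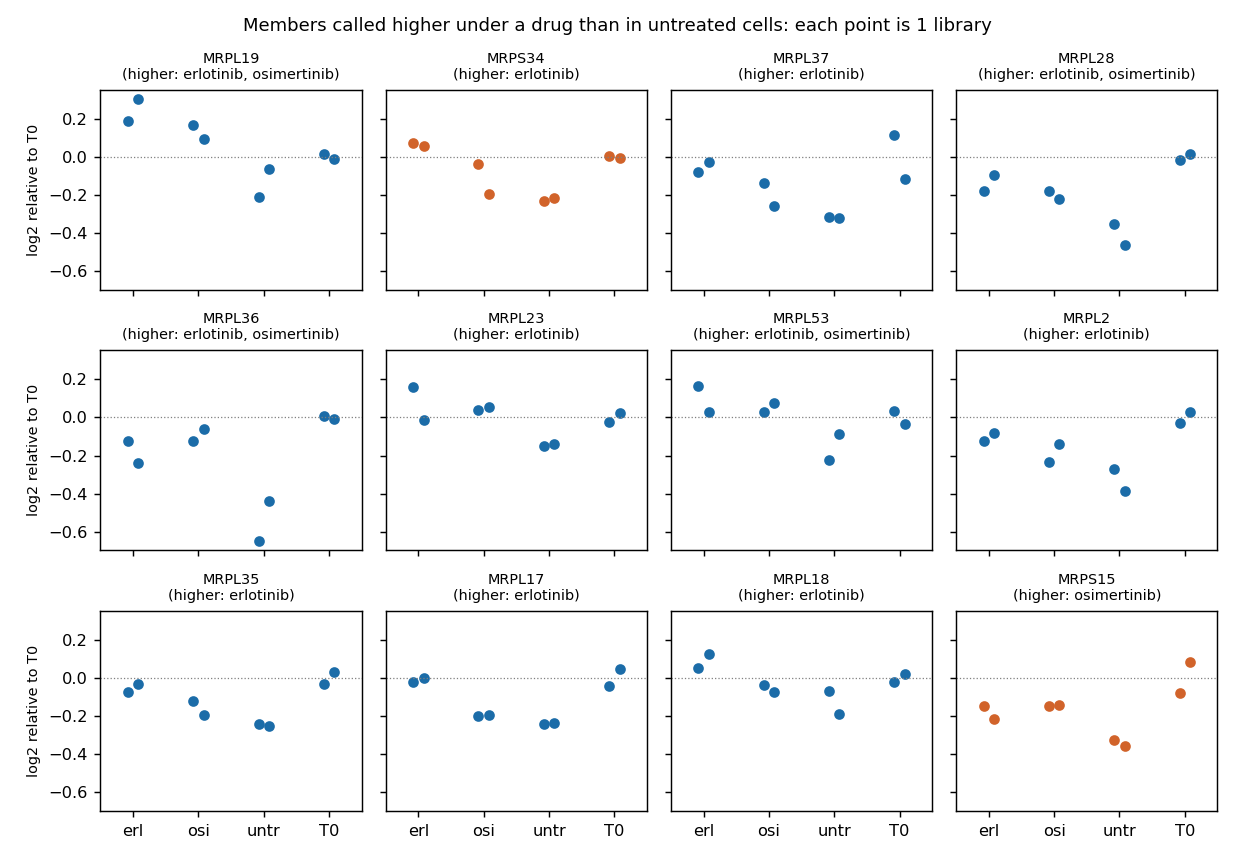
Log2 abundance (y axis, relative to non-targeting guides and to the gene's mean at T0) in each library of the groups erlotinib (erl), osimertinib (osi), untreated (untr) and T0, for the 12 members called higher under a drug than in untreated cells. Both erlotinib libraries lie above both untreated libraries for all 12 members, and both osimertinib libraries do for 11 of them, the exception being MRPL18 (-0.039 and -0.075 under osimertinib, -0.070 and -0.19 untreated).

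These calls rested on few libraries. The count of 11 was lower without either erlotinib replicate and without either untreated replicate, with the lone library of a group assumed to vary like the other groups. The share of all genes called in these fits is not given here, so a loss particular to the members cannot be read from it. MRPL19 and MRPS34 passed in all 8 fits that left out a library and under 9 other settings, and the remaining 9 members lost the call in at least 2 of those 8 fits.

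Single guides were tested with edgeR against the mean of all guides rather than against non-targeting guides. Of the 290 member guides that were kept, 9 (3.10%) were called higher under erlotinib and 0 lower, against 1.76% and 1.05% of all targeting guides. They belonged to 9 different genes, MRPL9, MRPL17, MRPL18, MRPL19, MRPL23, MRPL28, MRPL34, MRPL36 and MRPS33. The highest of these values were those of a guide to MRPL36 (0.55), a guide to MRPL28 (0.55) and a guide to MRPL18 (0.53), each in L2FC relative to non-targeting guides. The MRPL36 guide had 8.54 and 9.71 CPM under erlotinib, against 5.85 and 6.63 CPM in untreated cells.

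**Figure D3:**
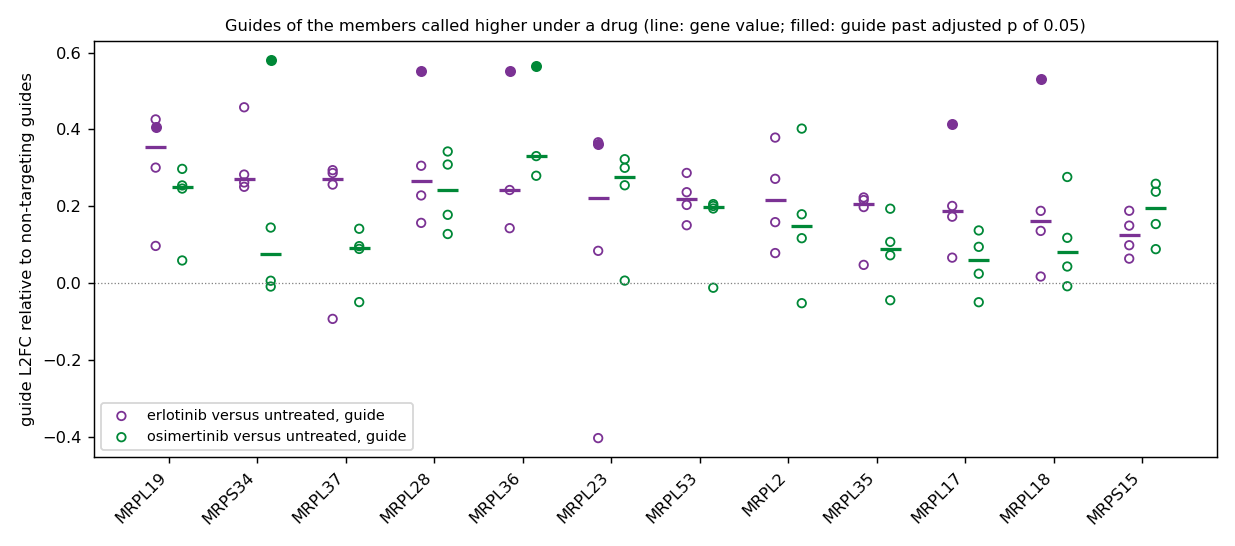
L2FC of each guide relative to non-targeting guides (y axis) for the 12 members called higher under a drug, with erlotinib versus untreated left of osimertinib versus untreated for each gene. Horizontal lines are gene values and filled points are guides past an adjusted p of 0.05; most guides lie above 0, and a guide to MRPL23 lies at -0.40 under erlotinib.

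At the other end of the erlotinib comparison were MRPL12, MRPS27, MRPS17, MRPS24 and MRPS22, none of which passed the test. MRPL12 (bL12), the stalk protein that recruits translation factors, had -0.16 ± 0.22 (n = 3 guides, limma adjusted p = 0.776). MRPS27 (mS27), a pentatricopeptide repeat protein, had -0.14 ± 0.40 (n = 4 guides, limma adjusted p = 0.282). Its guides ranged between -0.40 and 0.44. Values of MRPS17 (-0.12), MRPS24 (-0.094) and MRPS22 (-0.065) were closer to 0, with limma adjusted p between 0.375 and 0.761.

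Members chosen by their role had differing values under erlotinib. The stalk and its base had values near 0 or below, with -0.16 for MRPL12, -0.048 for MRPL10 (uL10) and 0.010 for MRPL11 (uL11). At the core of the large subunit MRPL2 rose (0.21), while MRPL4 (0.17 ± 0.045, n = 3 guides, limma adjusted p = 0.103) and MRPL3 (0.028 ± 0.083, n = 4 guides, limma adjusted p = 0.745) did not pass. MRPL45 (mL45), which anchors the ribosome to the inner membrane, had 0.097 ± 0.17 (n = 4 guides, limma adjusted p = 0.344). MRPS12 (uS12) of the decoding centre had 0.14 ± 0.11 (n = 4 guides, limma adjusted p = 0.222). MRPS30 (0.13) and the paralogs MRPS18A (0.11), MRPS18B (0.048) and MRPS18C (0.18) did not pass either, MRPS18C with limma adjusted p = 0.0525.

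Under osimertinib 5 of 75 members rose (6.67%) and 0 fell, against 6.45% and 5.30% of all genes, so the share that rose was close to that of all genes. The members that rose were MRPL36 (0.33), MRPL19 (0.25), MRPL28 (0.24), MRPL53 (0.20) and MRPS15 (0.20). The median L2FC was 0.039 over the members and 0.0099 over all genes. By subunit symbol, 4 of 47 large subunit members rose (median 0.059) and 1 of 28 small subunit members (median 0.031). At an unadjusted p under 0.05, 10 members were higher and 4 lower. In either direction these were 14 of 75 members, against 4589 of 17761 genes, a larger share. With edgeR on counts summed per gene, 8 were called higher (9.43% of all genes) and 2 lower (7.63% of all genes). Both osimertinib libraries lay above both untreated libraries for 26 members (34.7%), against 28.6% of all genes, and below both for 12 members (16.0%), against 22.9% of all genes.

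MRPL19 had an L2FC of 0.25 ± 0.11 for osimertinib against untreated (n = 4 guides, limma adjusted p = 0.00666), with all guides between 0.059 and 0.30. This call depended on single libraries and was kept under 8 of 9 other settings. The 20 nearest tested genes to MRPL19 on chromosome 2 had a median of 0.13 for osimertinib. MRPL53 had 0.031 and 0.076 in the osimertinib libraries, against -0.23 and -0.088 in the untreated libraries, and an L2FC of 0.20 ± 0.11 (n = 4 guides, limma adjusted p = 0.0385). The 20 nearest tested genes to MRPL53 on chromosome 2 had a median of 0.24 for osimertinib, above the value of MRPL53 itself. The osimertinib call of MRPL53 also depended on single libraries and was kept under 5 of 9 other settings. MRPS15 (uS15) of the small subunit had -0.15 and -0.14 in the osimertinib libraries, against -0.32 and -0.36 in the untreated libraries. Its L2FC was 0.20 ± 0.079 (n = 4 guides, limma adjusted p = 0.0482), and it lost the call in each of the 8 fits that left out a library. For MRPS15 the 20 nearest tested genes on chromosome 1 had a median of 0.19 in the same comparison. The count of 5 was lower in each of the 8 fits that left out a library. MRPL36 passed in each fit that left out a library and under the 9 other settings.

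Members with the lowest values under osimertinib did not pass the test. MRPL12 had -0.30 and -0.28 in the osimertinib libraries, against -0.086 and -0.14 in the untreated libraries, so the groups did not overlap. Its L2FC was -0.31 ± 0.11 (n = 3 guides), with all guides below 0 and limma adjusted p = 0.129. MRPL3, a core protein of the large subunit, had -0.20 ± 0.066 (n = 4 guides, limma adjusted p = 0.0807). MRPL51 (-0.21), MRPS30 (-0.17) and MRPL11 (-0.16) had SDs between guides of 0.17 to 0.31. At the upper end, MRPL23 (0.28 ± 0.15, n = 4 guides, limma adjusted p = 0.0595) and MRPS23 (0.21 ± 0.12, n = 4 guides, limma adjusted p = 0.0506) just missed the threshold.

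Among member guides, 4 (1.38%) were called higher and 4 (1.38%) lower under osimertinib, against 2.41% and 2.33% of all targeting guides. Guides to MRPL36, MRPL47, MRPS33 and MRPS34 were higher, and guides to MRPL11, MRPL16, MRPL30 and MRPL49 were lower. The guide to MRPS33 was called higher under both drugs, with L2FC of 0.43 for erlotinib and 0.37 for osimertinib, but the gene value of MRPS33 was 0.041 ± 0.22 for erlotinib and 0.18 ± 0.13 for osimertinib (n = 4 guides). MRPS33 was not called in either comparison (limma adjusted p = 0.569 and 0.247).

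The drugs were also compared directly, at their different doses. No member was called between erlotinib and osimertinib, against 1.01% of all genes that were higher under erlotinib and 0.484% that were lower. At an unadjusted p under 0.05, 17 of 75 members were higher under erlotinib and 0 lower, against 2402 of 17761 genes in either direction. With edgeR on counts summed per gene, 4 were called higher (2.08% of all genes) and 0 lower. The median difference was 0.065 over the members (0.067 for MRPL and 0.023 for MRPS symbols) and -0.0034 over all genes. Values above 0 were found for 55 of the 75 members, against 8607 of 17761 genes. MRPL3 had the largest difference (0.26 ± 0.12, n = 4 guides, limma adjusted p = 0.0819).

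Untreated cells were set against T0 to ask which knockouts were lost during 72 h without drug. Every tested member had a value below 0, and 47 of 75 fell (62.7%), against 49.8% of all genes, while 0 rose, against 0.0338% of all genes. At an unadjusted p under 0.05, 54 of 75 members were lower and 0 higher, against 10346 of 17761 genes in either direction. With edgeR on counts summed per gene, 55 were called lower (58.1% of all genes) and 0 higher. The median was -0.22 over the members, -0.17 over all genes and -0.12 over 326 olfactory receptor genes, which serve in the nose and stand here for genes without a role in these cells. Of these olfactory receptor genes 121 (37.1%) were called lower as well. The count depended on the guides used as reference. With olfactory receptor guides in place of non-targeting guides 14 members fell, against 14.0% of all genes, and with all targeting guides 7 fell, against 10.1% of all genes. The 65 members with both untreated libraries below both T0 libraries (86.7%) compared with 79.9% of all genes, and 1 member lay above in both, against 1.09% of all genes. Without T0 replicate 1 the count of 47 was lower.

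By symbol, 32 of 47 large subunit members fell (median -0.23) and 15 of 28 small subunit members (median -0.20). MRPL36 had the lowest value, with an L2FC of -0.57 ± 0.25 (n = 3 guides, limma adjusted p = 1.46e-06). Its guides differed, with 2 guides at -0.58 and -0.57 and another at -0.13. MRPS16 (bS16), a protein of the body of the small subunit, had -0.50 and -0.64 in the untreated libraries, against 0.0092 and -0.0092 at T0. All 4 of its guides lay between -0.70 and -0.42, and the L2FC was -0.54 ± 0.12 (limma adjusted p = 7.28e-06). MRPS16 had the lowest value among the MRPS members, the next of which, MRPS11, had -0.36. The 20 nearest tested genes to MRPS16 on chromosome 10 had a median of -0.48 in the same comparison. Minus these neighbours MRPS16 had -0.058, and MRPS11 on chromosome 15 had -0.25 minus its own.

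In the large subunit MRPL4 (uL4), which lines the exit tunnel, had -0.39 and -0.52 in the untreated libraries, against -0.083 and 0.083 at T0, with an L2FC of -0.52 ± 0.054 (n = 3 guides). MRPL54 (mL54) had -0.48 ± 0.12, MRPL45 had -0.44 ± 0.27 and MRPL44 (mL44), which is related to ribonuclease III, had -0.44 ± 0.18 (n = 4 guides each). These members and MRPL28 and MRPS16 also fell against olfactory receptor guides, as did MRPL2, MRPL11, MRPL21, MRPL27, MRPL34, MRPL36, MRPL47 and MRPS15. Members at the upper end were MRPS33 (-0.018), MRPS10 (-0.019), MRPL12 (-0.057), MRPS25 (-0.058) and MRPS26 (-0.073). None of these passed the test, and MRPS33 and MRPS10 each had 2 guides above 0.

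By role, the core members MRPL2 (-0.33), MRPL3 (-0.29) and MRPL4 fell, as did MRPL10 (-0.30) and MRPL11 (-0.42) at the stalk base and MRPS12 (-0.31) in the decoding centre, whereas MRPL12 of the stalk itself did not pass. MRPS18C (bS18), which has a bacterial homologue, fell (-0.23 ± 0.17, n = 4 guides, limma adjusted p = 0.00432). Its paralogs MRPS18A (-0.20, limma adjusted p = 0.0864) and MRPS18B (-0.098, limma adjusted p = 0.101) did not pass, though the value of MRPS18A was close to that of MRPS18C. MRPS30 fell by 0.20 ± 0.32 (n = 3 guides, limma adjusted p = 0.0235), with 1 guide above 0. Its call was kept under 3 of 9 other settings. Against olfactory receptor guides MRPL3, MRPL10, MRPS12, MRPS18C and MRPS30 were not called, whereas MRPL2, MRPL4 and MRPL11 were.

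Of 290 member guides, 10 (3.45%) were called lower in untreated cells than at T0 and 1 (0.345%) higher, against 5.93% and 1.19% of all targeting guides. The lower guides belonged to MRPL2, MRPL27, MRPL35, MRPL43, MRPL45, MRPL47, MRPL54, MRPS23 and, with 2 guides, MRPS16. A guide to MRPL43 had the lowest value (-0.82).

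Each drug was also set against T0. Under erlotinib 24 of 75 members fell and 1 rose, against 44.5% and 0.411% of all genes, and the median was -0.078, against -0.14 for all genes. Under osimertinib 36 members fell and 0 rose, against 46.8% and 1.26% of all genes, with a median of -0.15, against -0.14 for all genes. At an unadjusted p under 0.05, 44 of 75 members were lower under osimertinib than at T0 and 0 higher. Of all genes 9746 of 17761 passed in either direction, a share close to that of the members. With edgeR on counts summed per gene, 46 were called lower (53.3% of all genes) and 0 higher. MRPS16 was lowest for erlotinib (-0.44 ± 0.23, n = 4 guides) and MRPL11 for osimertinib (-0.61 ± 0.22, n = 3 guides). These comparisons share the T0 libraries with the comparison of untreated cells.

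The subunits were then compared library by library. The median log2 abundance of MRPL members relative to T0 was -0.12 and -0.11 in the erlotinib libraries, -0.20 and -0.18 in the osimertinib libraries and -0.24 and -0.23 in the untreated libraries. For MRPS members it was -0.10 and -0.067 in the erlotinib libraries, -0.14 and -0.15 in the osimertinib libraries and -0.22 and -0.18 in the untreated libraries. Both erlotinib libraries lay above all osimertinib and untreated libraries for either subunit. The median of all genes moved little, with -0.16 and -0.14 under erlotinib, -0.16 and -0.14 under osimertinib and -0.16 and -0.17 in untreated cells.

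The MRPL median was below the MRPS median in each of the 6 libraries taken at 72 h. The difference was -0.017 and -0.048 under erlotinib, -0.057 and -0.033 under osimertinib and -0.023 and -0.055 in untreated cells, so the groups overlapped. With subunits assigned by structure, which moves MRPS30 and MRPS18A to the large subunit, the order turned in erlotinib replicate 1 (0.0061) and the difference lay between -0.064 and -0.015 in the other 5 libraries. Replicate libraries differed with an SD of 0.0074 for the MRPL median and 0.020 for the MRPS median. With 2 libraries per group and members chosen with results known, no test of the subunits against each other was made.

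**Figure D4:**
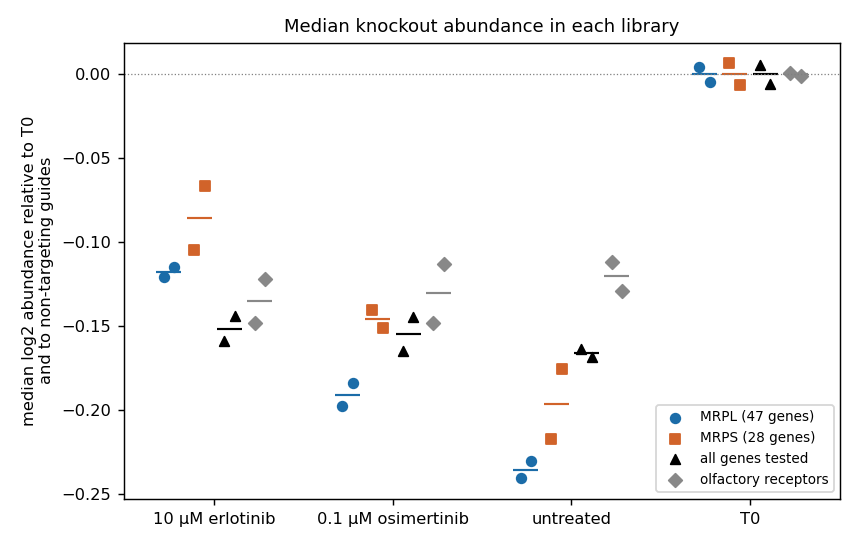
Median log2 abundance relative to T0 and to non-targeting guides (y axis) over 47 MRPL members, 28 MRPS members, all genes tested and olfactory receptors, with 1 point per library and a line at the mean of the group. Both mitochondrial ribosome medians are highest under erlotinib among the groups at 72 h, and the medians of all genes (-0.17 to -0.14) hardly move.

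The members were also grouped by structure and origin. Under erlotinib, where 5.36% of all genes rose, large subunit members by structure rose in 10 of 49 cases (20.4%, median 0.12). Small subunit members rose in 1 of 26 (3.85%, median 0.080). Large subunit members with a bacterial homologue rose in 8 of 30 cases (median 0.12) and mitochondria-specific large subunit members in 2 of 19 (median 0.12). In the small subunit 0 of 16 members with a bacterial homologue were called (median 0.12) and 1 of 10 mitochondria-specific members was (median 0.045). At an unadjusted limma p under 0.05, 7 of those 16 passed, against 3755 of 17761 genes in either direction. For untreated cells against T0, where 49.8% of all genes fell, 11 of 16 small subunit members with a bacterial homologue fell (median -0.27) and 3 of 10 mitochondria-specific members (median -0.17). In the large subunit 19 of 30 members with a bacterial homologue fell (median -0.22) and 14 of 19 mitochondria-specific members (median -0.22).

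Members lie on 21 different chromosomes, and each member was also set against the 10 nearest tested genes on either side. Relative to these neighbours the median of the members was 0.11 for erlotinib (62 of 75 above 0), 0.047 for osimertinib (49 of 75) and -0.043 for untreated against T0 (28 of 75). MRPS17 lies close to EGFR on chromosome 7. Its neighbours had a median of -0.21 for untreated against T0, and MRPS17 itself had -0.080 ± 0.066 (n = 4 guides, limma adjusted p = 0.726). On chromosome 11 the neighbours of MRPL11, MRPL21 and MRPL49 were lower under erlotinib than in untreated cells, with medians of -0.15, -0.12 and -0.17, and the members had 0.010, 0.084 and -0.013. On chromosome 2 the neighbours of MRPL53 and MRPL35, both called higher under erlotinib, had medians of 0.15 and 0.14 in that comparison. Minus their neighbours these members had 0.068 and 0.065, and MRPL23 on chromosome 11 had 0.12. The other 8 members called higher under erlotinib had 0.15 to 0.27 minus their neighbours.

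The sign of the gene value turned when the neighbours were subtracted for 9 of 75 members under erlotinib, 28 under osimertinib and 28 in untreated cells against T0. Of the members with low values under erlotinib, MRPL10, MRPS24 and MRPS22 turned to 0.070, 0.030 and 0.045. Under osimertinib MRPL11 turned to 0.058 and MRPS34 to -0.041. In untreated cells against T0, all 5 members with the highest values (MRPS33, MRPS10, MRPL12, MRPS25 and MRPS26) turned, to values between 0.041 and 0.18.

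Other genes of mitochondrial translation were set beside the members, again with 5.36% of all genes higher and 2.54% lower under erlotinib. Of 7 proteins of the mitochondrial ribosome with other symbols 1 rose (median 0.095), PTCD3 of the small subunit (0.33 ± 0.15, n = 4 guides, limma adjusted p = 0.0036). Of 17 mitochondrial aminoacyl-tRNA synthetases 3 rose and 0 fell (median 0.16), namely PARS2 (0.37 ± 0.20), MARS2 (0.27 ± 0.12) and VARS2 (0.26 ± 0.11), which charge tRNAs with proline, methionine and valine. Among 17 translation factors and related proteins 2 rose and 0 fell (median 0.038), OXA1L, which inserts nascent chains into the inner membrane (0.29 ± 0.11), and LRPPRC, which stabilizes mitochondrial mRNA (0.28 ± 0.15). Of 26 genes of ribosome assembly and rRNA modification (median 0.044) 2 rose, MTERFD2 (0.26 ± 0.21) and RBFA (0.29 ± 0.19), and the rRNA methyltransferase gene MRM1 fell (-0.35 ± 0.20, n = 3 guides).

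Of 36 nuclear genes of respiratory complex I, whose core includes products of this ribosome, 5 rose and 0 fell under erlotinib (median 0.089), among them NDUFAB1 (0.44 ± 0.26) and NDUFS1 (0.30 ± 0.14). Cytosolic ribosomal proteins were also higher under erlotinib, with 14 of 58 called and a median of 0.13. Olfactory receptors had a median of -0.016, with 3 of 326 higher and 12 lower. Of all genes tested 5.36% were higher and 2.54% lower in this comparison.

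Under osimertinib 6.45% of all genes rose and 5.30% fell (median 0.0099). Of the 7 other mitochondrial ribosome proteins 0 were called (median 0.028). At an unadjusted limma p under 0.05, 1 of them passed, against 4589 of 17761 genes in either direction. Of the aminoacyl-tRNA synthetases 1 of 17 rose (VARS2, 0.16 ± 0.086), and of the translation factors 1 of 17 (LRPPRC, 0.19 ± 0.090). In complex I 4 of 36 rose (median 0.020) and in the cytosolic ribosome 3 of 58 rose and 1 fell (median 0.0097). Of the 26 assembly genes 1 rose, MTERFD2 (0.22 ± 0.17, n = 4 guides), and 1 fell, MRM1 (-0.40 ± 0.024, n = 3 guides, limma adjusted p = 0.00344). The share that rose was 11.1% in complex I and below that of all genes in each of the other lists named here. No list had a larger share that fell than all genes.

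In untreated cells against T0, where 49.8% of all genes fell (median -0.17), 6 of the 7 other mitochondrial ribosome proteins fell (median -0.305). So did 11 of 17 aminoacyl-tRNA synthetases (median -0.22), 10 of 17 translation factors (median -0.20), 10 of 26 assembly genes (38.5%, median -0.15) and 23 of 36 complex I genes (median -0.21). The share of assembly genes was below that of all genes. OXA1L had the lowest value among the translation factors (-0.56 ± 0.13, n = 4 guides). All of these medians were far from that of the cytosolic ribosome (-0.78).

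**Figure D5:**
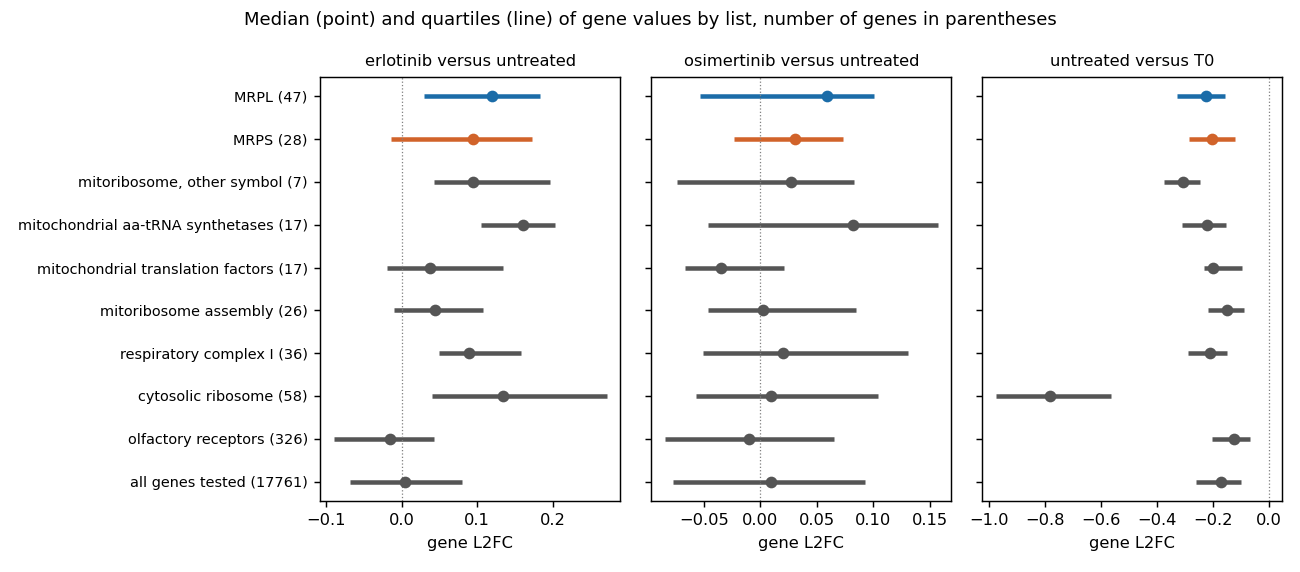
Median (point) and quartiles (line) of gene values (L2FC relative to non-targeting guides, x axis, separate scale in each panel) for MRPL and MRPS members, other gene lists and all genes tested, in the comparisons erlotinib versus untreated, osimertinib versus untreated and untreated versus T0. Under erlotinib the medians of MRPL (0.12), MRPS (0.095), mitochondrial aminoacyl-tRNA synthetases (0.16) and the cytosolic ribosome (0.13) lie above that of all genes, and in untreated cells the cytosolic ribosome (-0.78) lies far below the other lists.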

How the data were processed

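Raw reads of each guide (TKOv3 library, PC9-Cas9 cells) were deposited by the authors as counts, not normalized. Guides were amplified from genomic DNA by PCR without molecular identifiers, so reads are not independent molecules. As aligner, the submitters' processing notes name Bowtie 1.3.1, whereas the methods name Bowtie2. The table held 71090 guides, 142 of them non-targeting. A spreadsheet had changed 50 symbols into amounts of money, of which 1 could not be restored and was left out with its 4 guides. Guide sequences were not used here, and an additional osimertinib arm was not analysed here.

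The 5% of guides with the lowest mean normalized count (under 46.0 reads) were dropped, and 67531 guides were kept. A quasi-likelihood model with TMM scaling was fitted to all 8 libraries (edgeR 4.0.16 under R 4.3.3), with a common dispersion of 0.00537 and 4 degrees of freedom for the residuals. Guide L2FC was collapsed to a median per gene with at least 2 guides, minus the median of non-targeting guides. Calls came from limma 3.58.1 (eBayes with trend) on values per gene and library, each being the median over guides of centred log2 CPM (prior count 1) minus the library's non-targeting median, adjusted by Benjamini-Hochberg over 17761 genes with a threshold of 0.05. This replaces the methods' resampling of non-targeting guides. DESeq2 1.42.0 and edgeR on counts summed per gene were alternatives, beside other references, filters, summaries, left-out libraries and a replicate block. Scripts were tested on simulated data.

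Named genes were the 5 lowest and 5 highest members of each main comparison with at least 3 guides, and members chosen by role. Further genes called under a drug were named after their values were seen, as were genes of the other lists, single guides, MRPL39, MRPL40, MRPL44, MRPS5 and MRPS11. All 76 symbols matched RefSeq, whose GRCh38.p14 table gave neighbours. Members and gene lists were chosen with earlier results of these data known.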

Additional observations from a re-analysis of the deposited data

How the results depend on the processing

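Directions were kept under most alternatives, but counts of calls depended on the reference and on single libraries. For untreated against T0 the 47 members called lower became 14 with olfactory receptor guides and 7 with all targeting guides as reference, and 31 to 49 with a library left out. The MRPL median was then -0.10 and -0.051, with -0.24 when 20% of guides were left out, -0.25 with means over guides and -0.25 to -0.21 with a library left out, and the MRPS median was -0.079 and -0.028, -0.23 with 20% left out and -0.21 to -0.17. For erlotinib the 11 members called higher became 20 with edgeR on counts summed per gene and 3 to 16 with a library left out. Its MRPL median was 0.14 with olfactory receptor guides, 0.11 with 20% of guides left out, 0.13 with summed counts and 0.10 to 0.14 with a library left out, and its MRPS median was 0.11 and 0.12 with olfactory receptor guides and summed counts. For osimertinib the 5 members called higher became 3 with all targeting guides, 1 without centring of guides, 8 with summed counts and 1 to 4 with a library left out. Its MRPL median was 0.050 with all targeting guides, 0.051 with means over guides, 0.048 with summed counts, 0.040 with subunits by structure and 0.033 to 0.074 with a library left out, and its MRPS median was 0.0042 with means over guides and 0.0073 to 0.031 with a library left out. Relative to chromosomal neighbours the MRPL and MRPS medians were -0.047 and -0.017 for untreated against T0, the MRPS median was 0.0039 for osimertinib, and, among named members with a call in the comparison, MRPS15 turned to 0.047 for untreated against T0 and MRPL53 to -0.039 for osimertinib. Without centring of guides the fitted difference of MRPS30 for untreated against T0 turned positive (gene value -0.20, limma adjusted p = 0.11). Causes were not tested.

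Replicate numbers did not pair the libraries (correlations of deviations between -0.0036 and 0.016). With a replicate block 47 members were called lower for untreated against T0, 11 higher for erlotinib and 5 higher for osimertinib, and MRPL medians were -0.23, 0.12 and 0.058. The SD between guides was often as large as the gene value, and 2 libraries per group limit every call.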
